A study of Mus musculus with 4 samples.

Results

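Collagens, laminins and nidogens, the main building proteins of the extracellular matrix, were examined in 4 RNA-seq libraries of CT26 cells, a mouse colon carcinoma line. The members were the rows whose symbol names a collagen chain (Col, a type number, a chain number), a laminin chain (Lama, Lamb or Lamc with a number) or a nidogen (Nid1, Nid2), which gave 57 of the 55335 genes listed. Levels are in FPKM, which divides a gene's fragments by its transcript length and by the library's mapped fragments. CT26_102 and CT26_CTL carry the labels FOSL2-WT and PBS, the control, while CT26_102_R and CT26_CTL_R carry FOSL2-KO and chemoradiotherapy. The suffix R therefore coincides with genotype and treatment together, whose effects cannot be told apart. The labels explain neither the suffix nor the title stems CT26_102 and CT26_CTL, give a time of treatment only as a dash and do not say whether a stem is a clone, while the design text speaks of knockdown cells. Each title is 1 library, so each stem and each suffix holds 2. Where 4 values stand in a row are given in the order CT26_102, CT26_102_R, CT26_CTL, CT26_CTL_R throughout.

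Collagens are trimers wound from chains with repeated glycine. Fibrillar types such as I, III and V give tensile fibres and are made mainly by mesenchymal cells, while type IV forms the sheet-like network of basement membranes. Laminins, each built of an alpha, a beta and a gamma chain, form the other basement membrane network and bind integrins and dystroglycan, and nidogens bridge laminin to type IV collagen. In the colon the epithelium rests on such a membrane, and carcinoma cells contribute to it.

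Fosl2, the gene named in the genotype labels, was at 9.35, 16.0, 12.7 and 19.2 FPKM, so each library labelled FOSL2-KO held more of it than the FOSL2-WT library of its stem, and directions below are those of the labels only. Of 10 colon epithelial markers, 7 were under 1 FPKM in every library, Epcam and Cdx2 were listed at 0 in all 4, and Cdh1 reached at most 0.0202, while Krt18 ranged from 34.7 to 76.5 and Krt20 from 24.5 to 36.8. Krt8 was at 3.82, 2.74, 0.461 and 0.652, with its higher values in stem CT26_102. Krt19, another keratin, reached at most 0.142. Krt18 and Krt20 were thus present in all 4 libraries while Epcam, Cdx2 and, nearly, Cdh1 and Krt19 were not. Vim, a mesenchymal filament, ranged from 503 to 782, and all 8 markers of a mesenchymal state were at 1 or more in each library. The growth protocol in the labels also calls the cells mesenchymal. Other matrix-making cells were looked for through 10 fibroblast markers, of which Lum and Postn were listed at 0 and Dcn reached at most 0.142. Pdpn was at 13.9, 30.5, 46.7 and 80.2 and made up most of the summed FPKM of 25.7, 39.3, 53.3 and 86.6. Pdgfrb was at 9.73, 6.345, 5.47 and 5.02 and Pdgfra at 1.57, 0.734, 1.04 and 0.7225, both highest in CT26_102, as is the summed FPKM of the members given below. Pdpn, in contrast, was lowest in CT26_102. The other 7 fibroblast markers were under 1 FPKM in every library, and of these Fap, Acta2, Tagln and Thy1 were highest in CT26_102_R and Dcn in CT26_102. The part of fibroblast markers in the results was not tested. All 8 endothelial markers were under 1 in each library and Cdh5 was at 0. Their sum was 0.638, 0.991, 0.246 and 0.260. Leukocyte markers summed to 16.6, 56.2, 14.9 and 4.83, mostly Lyz2 at 15.02, 53.07, 13.05 and 4.36. Csf1r was at 1.096, 1.998, 0.9649 and 0.1585, like Lyz2 highest in CT26_102_R and lowest in CT26_CTL_R. Ptprc was at 0.0880 at most and Cd3e at 0.

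Promoters are shown for 4 members on which the comparisons turn: Col3a1, Nid1 and Col6a2, which were under 1 FPKM in both CT26_CTL libraries, and Col1a2, the most abundant fibrillar chain. Each stretch lies upstream of the RefSeq start (GRCm38.p6), without bases that GENCODE M21 annotates as exon. The positions are chr1:45311288-45311537 on the plus strand for Col3a1, chr13:13437352-13437550 plus for Nid1, chr10:76623631-76623880 minus for Col6a2 and chr6:4505370-4505492 plus for Col1a2. Capitals mark matches, on either strand, to the GC box letters GGGCGG, the CCAAT box letters CCAAT, the TATA box letters TATAAA and the AP-1 letters TGANTCA, the last being the site class that FOSL2-containing dimers bind.
Col3a1: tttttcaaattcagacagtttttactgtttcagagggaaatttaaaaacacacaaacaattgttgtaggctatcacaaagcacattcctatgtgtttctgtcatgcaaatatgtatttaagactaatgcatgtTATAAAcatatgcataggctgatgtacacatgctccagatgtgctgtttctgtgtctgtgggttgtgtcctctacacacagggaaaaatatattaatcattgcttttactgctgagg
Nid1: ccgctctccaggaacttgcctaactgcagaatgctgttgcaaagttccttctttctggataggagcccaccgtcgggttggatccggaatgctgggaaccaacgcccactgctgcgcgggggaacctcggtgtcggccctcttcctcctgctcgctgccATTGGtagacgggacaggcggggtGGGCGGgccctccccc
Col6a2: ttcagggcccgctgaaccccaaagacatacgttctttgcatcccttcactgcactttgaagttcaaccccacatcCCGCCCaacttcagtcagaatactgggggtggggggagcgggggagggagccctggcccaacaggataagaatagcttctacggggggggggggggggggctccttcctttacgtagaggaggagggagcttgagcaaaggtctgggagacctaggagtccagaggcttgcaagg
Col1a2: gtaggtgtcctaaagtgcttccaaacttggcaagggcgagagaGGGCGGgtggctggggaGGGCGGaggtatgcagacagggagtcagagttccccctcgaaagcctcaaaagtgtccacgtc

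The printed Col3a1 stretch held 1 TATAAA match and no GC box, that of Nid1 held 1 GC box and 1 CCAAT, that of Col6a2 held 1 GC box and that of Col1a2 held 2. None of these 4 stretches held TGANTCA. RefSeq windows of 250 bases before to 50 after a start were found for 41 of 56 members searched, in 45 windows. The printed Col1a2 stretch covers only 248 to 126 bases before the start, and the full Col1a2 window also held 2 CCAAT matches. Another Col6a2 window, not printed, held 3 GC boxes. GGGCGG was in 27 of the members' windows and in 35.7% of all 32851 windows, CCAAT in 15 (33.3%) against 37.4%, and TATAAA in 5 (11.1%) against 13.6%. TGANTCA was in 1 member window, that of Col6a1 (2.22%), against 7.81% of all windows. These are counts of letters, and binding was not measured.

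Of the 57 members, 24 reached 1 FPKM in at least 2 libraries and were tested, and 33 did not. Summed over all members, FPKM was 632, 448, 293 and 264, highest in CT26_102 and lower in both CT26_CTL libraries. Fibrillar collagens gave 256, 122.5, 118 and 84.0 of this, basement membrane genes 311, 273, 138 and 142, and the other collagens 64.9, 52.2, 37.1 and 37.9. Col1a2, the alpha 2 chain of type I, was the most abundant member in 3 libraries, and Col4a1, of type IV, in CT26_102_R. A bulk library cannot tell fewer cells making a transcript from less transcript per cell.

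Near 0, under 0.1 FPKM in all 4 libraries, were 21 members, and Col6a6, Col9a1, Col19a1 and Col25a1 were listed at 0 in each. The genes near 0 included 2 of 11 fibrillar collagens (Col11a1, Col27a1), 3 of 6 type IV chains (Col4a3, Col4a4, Col4a6), 3 of 5 laminin alpha chains (Lama1, Lama2, Lama4) and 13 of 27 other collagens. Those 13 were Col9a1, Col9a2, Col19a1, Col6a4, Col6a5, Col6a6, Col8a2, Col13a1, Col15a1, Col23a1, Col25a1, Col26a1 and Col28a1. At the estimated depth 1 read in a transcript of 5 kilobases is worth between 0.00758 and 0.00925 FPKM, so such values rest on few reads. Between this level and the test filter lay 12 members: Col2a1, Col5a2, Col5a3, Col24a1, Col6a3, Col10a1, Col12a1, Col14a1, Col17a1, Col22a1, Lamc3 and Nid2. Only Col5a3, a type V chain, reached 1 in any library, at 0.640, 1.19, 0.0550 and 0.0135 FPKM.

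**Figure D1:**
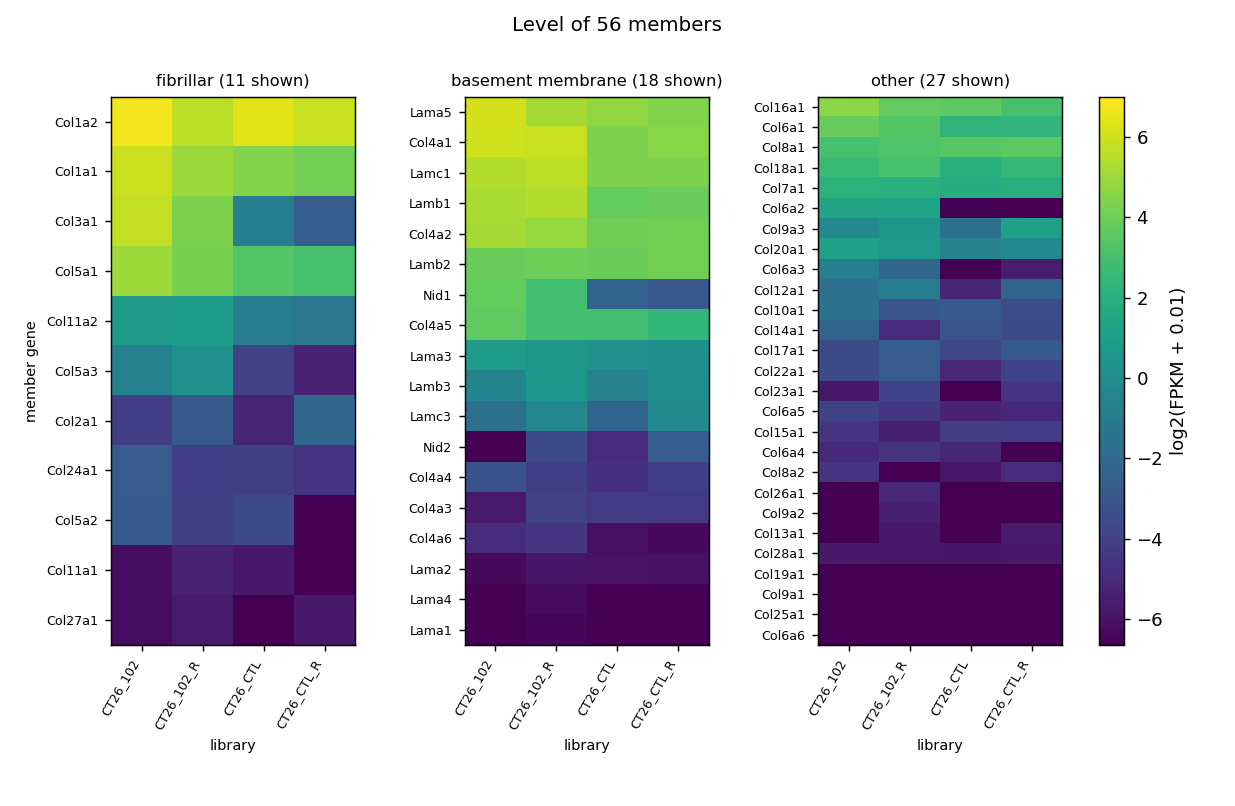
Level of 56 of the members as log2(FPKM + 0.01), by colour, in the 4 libraries, with fibrillar collagens, basement membrane genes and other collagens in separate panels ordered by their highest value. Col3a1, Nid1 and Col6a2 are lighter in both CT26_102 libraries than in both CT26_CTL libraries, and the 21 genes near 0 fill the lower part of each panel.

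Between title stems, 15 of the 24 tested members were higher in CT26_102 and 0 were lower, by limma's adjusted p under 0.05 in a fit with both stem and suffix as terms. Over all 11955 genes tested, 12.5% were called higher and 9.44% lower, against 62.5% and 0.0% of these members. At an unadjusted p under 0.05, 16 members were higher and 1 (Col8a1) lower, beside 4830 of all 11955 genes in either direction. The median log2 difference was 0.83 for the members and 0.05 for all tested genes. Col3a1, Nid1, Col6a2, Col11a2 and Col20a1 passed the filter only through the CT26_102 libraries and so had to be higher there. This leaves 10 of 19 others called higher, with a median of 0.56. Adjusted p ran from 0.00325 to 0.0459, but in a fit with the stem as its only term it ran from 0.0505 to 0.444 for the same genes. There 0 members were called, with 13 at an unadjusted p under 0.05, beside 2000 of all 11955 genes. In limma's fit with both terms but no expression filter 0 members were likewise called, and 19 were higher at an unadjusted p under 0.05. Of all 27670 genes in that fit, 5802 were under 0.05 in either direction. Members were longer than most genes, with a median exonic length of 7242 bases against 3887, and longer genes were higher in CT26_102: the median difference was 0.27 in the quintile of longest genes (at least 6966 bases), which holds 13 of the 24, and -0.16 in the quintile of shortest. With that length trend removed, 13 members were higher and 1 lower, beside 1099 higher and 1091 lower of all 11955 genes.

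**Figure D2:**
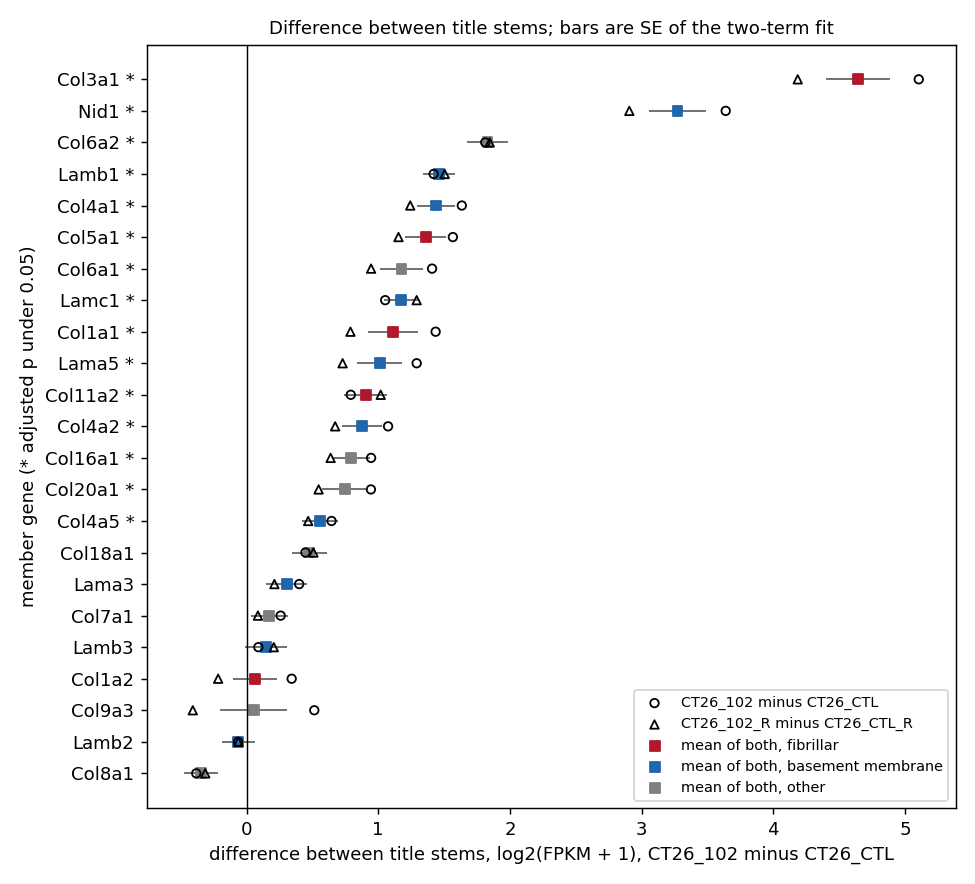
Difference between title stems of 23 of the tested members on the log2(FPKM + 1) scale, CT26_102 minus CT26_CTL. Squares are the fitted mean with its SE, coloured by type, open circles and triangles the library pairs without and with suffix R, and stars mark adjusted p under 0.05. Col3a1 (4.65) and Nid1 (3.27) stand farthest to the right, and Lamb2 and Col8a1 lie left of 0 in both pairs.

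Among fibrillar collagens, 4 of 5 tested chains were higher in stem CT26_102 and the remaining chain, Col1a2, did not differ detectably. Without Col3a1 and Col11a2, whose direction was fixed by the filter, it was 2 of 3. Col3a1 (ENSMUSG00000026043, GRCm38 chromosome 1, 45311538 to 45349706, plus strand), the only chain of type III collagen, was at 53.0, 19.8, 0.568 and 0.144 FPKM. It was high in both CT26_102 libraries and below 1 in both CT26_CTL libraries, 93.2 and 138 times apart without and with suffix R. Its fitted log2 difference, with the SE of the fit (n = 2 libraries a stem), came to 4.65 ± 0.24 (adjusted p = 0.00325). The adjusted p ranged from 0.00184 to 0.0818 over the alternatives that kept 4 libraries. Differences of such genes depend on the pseudocount, and with 0.1 in place of 1 that of Col3a1 was 6.33. Col1a1 (ENSMUSG00000001506, chromosome 11, 94936224 to 94953042, plus strand), the alpha 1 chain of type I, was at 60.7, 30.7, 21.8 and 17.3 FPKM. Both CT26_102 libraries lay above both CT26_CTL libraries, by 2.78 and 1.77 times (log2 difference 1.11 ± 0.19, adjusted p = 0.0220). Col1a2 (ENSMUSG00000029661, chromosome 6, 4504814 to 4541544, plus strand) was at 107.5, 49.6, 84.6 and 57.8, so the stems overlapped (0.06 ± 0.17, adjusted p = 0.803), and its difference turned negative, to -0.26, with the length trend removed. Col5a1, the type V chain that starts thin fibrils, was at 32.3, 19.1, 10.3 and 8.02 FPKM, 3.15 and 2.38 times higher in CT26_102 (1.36 ± 0.16, adjusted p = 0.0112). Col11a2, a chain of cartilage fibrils, was low at 1.64, 1.86, 0.524 and 0.413 FPKM (0.91 ± 0.16, adjusted p = 0.0244).

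Of the 11 tested basement membrane genes, 7 were higher in stem CT26_102: all 3 tested type IV chains, Lama5, Lamb1, Lamc1 and Nid1. Without Nid1, whose direction was fixed by the filter, it was 6 of 10. Nid1 (ENSMUSG00000005397, chromosome 13, 13437551 to 13512269, plus strand) was at 13.7, 7.41, 0.184 and 0.122 FPKM, with no overlap between stems and ratios of 74.7 and 61.0. Its log2 difference was 3.27 ± 0.22 (adjusted p = 0.00430), or 5.35 with a pseudocount of 0.1. The other nidogen, Nid2, was at 0, 0.0792, 0.0215 and 0.146. Col4a1 (ENSMUSG00000031502, chromosome 8, 11198423 to 11312826, minus strand) was at 65.2, 57.2, 20.3 and 23.6 FPKM, and Col4a2 (ENSMUSG00000031503, chromosome 8, 11312805 to 11449287, plus strand) at 35.8, 28.2, 16.5 and 17.3. Both are chains of the common type IV trimer, and in both genes each CT26_102 library lay above each CT26_CTL library. The log2 differences were 1.44 ± 0.15 (adjusted p = 0.00926) and 0.87 ± 0.15 (adjusted p = 0.0233). Col4a5, a chain of the rarer trimers, was at 12.6, 7.55, 7.71 and 5.18, a difference of 0.56 ± 0.14 (adjusted p = 0.0459) that did not pass with median-of-ratios rescaling (adjusted p = 0.0631) or without the length trend (adjusted p = 0.110), its range over the alternatives being 0.0452 to 0.444.

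Of the 7 tested laminin chains, 3 were higher in stem CT26_102. Lamb1, the common beta chain, was at 38.6, 43.2, 13.8 and 14.6 FPKM, 2.80 and 2.97 times higher in CT26_102 (1.46 ± 0.12, adjusted p = 0.00691). Lamc1, the common gamma chain, was at 43.4, 49.5, 20.4 and 19.6 (1.17 ± 0.13, adjusted p = 0.0107), and Lama5, the alpha chain of most adult epithelial membranes, at 69.0, 35.6, 27.6 and 21.1 (1.01 ± 0.17, adjusted p = 0.0224). In these 3 genes the stems did not overlap, though the share of all genes that do not was not counted. Lama3 and Lamb3, an alpha and a beta chain of epithelial laminins, were not called. Lama3 was at 1.87, 1.48, 1.18 and 1.14 (0.31 ± 0.15, adjusted p = 0.204) and Lamb3 at 0.715, 1.41, 0.612 and 1.09 (0.15 ± 0.16, adjusted p = 0.518). Lamb2, the alternative beta chain, was at 14.7, 16.1, 15.4 and 16.8 FPKM, within 1 narrow range in all libraries (-0.06 ± 0.13, adjusted p = 0.736). A p above the threshold does not show these 3 to be equal between stems.

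Among other collagens, 4 of 8 tested genes were higher in stem CT26_102. It was 2 of 6 without Col6a2 and Col20a1, whose direction was fixed by the filter. Col6a1 and Col6a2 encode chains of the beaded filaments of type VI. Col6a1 was at 14.4, 10.5, 4.82 and 4.98 FPKM (1.18 ± 0.17, adjusted p = 0.0160). Col6a2 (ENSMUSG00000020241, chromosome 10, 76595762 to 76623630, minus strand) reached 2.51 and 2.60 FPKM in CT26_102 and CT26_102_R, and the CT26_CTL and CT26_CTL_R values are 0, so no fold is given (log2(FPKM + 1) difference 1.83 ± 0.16, adjusted p = 0.00697, or 4.73 with a pseudocount of 0.1). Col6a3, the long chain of that filament, stayed under the filter at 0.588, 0.214, 0 and 0.0116. Col16a1, which attaches to the surface of fibrils, was at 24.7, 13.1, 12.3 and 8.05 (0.79 ± 0.14, adjusted p = 0.0253). CT26_102_R and CT26_CTL lay close together there. Col20a1, of the same fibril-associated class, was at 2.19, 1.67, 0.658 and 0.824 (0.75 ± 0.17, adjusted p = 0.0425), which did not pass with median-of-ratios rescaling (0.0519) or without the length trend (0.0687), its range being 0.0399 to 0.222. Not called were Col18a1, the source of endostatin, at 5.96, 8.15, 4.10 and 5.44 (0.48 ± 0.13, adjusted p = 0.0608), Col7a1 of anchoring fibrils at 4.31, 4.02, 3.43 and 3.73, and Col9a3 at 0.862, 1.46, 0.303 and 2.27. Col8a1, a network former of vessel walls, had its higher values in stem CT26_CTL, at 8.23, 9.35, 11.02 and 11.9 FPKM (-0.35 ± 0.13, adjusted p = 0.113), and it was the member called lower once the length trend was removed (-0.555, adjusted p = 0.0430, the lowest in a range up to 0.433).

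**Figure D3:**
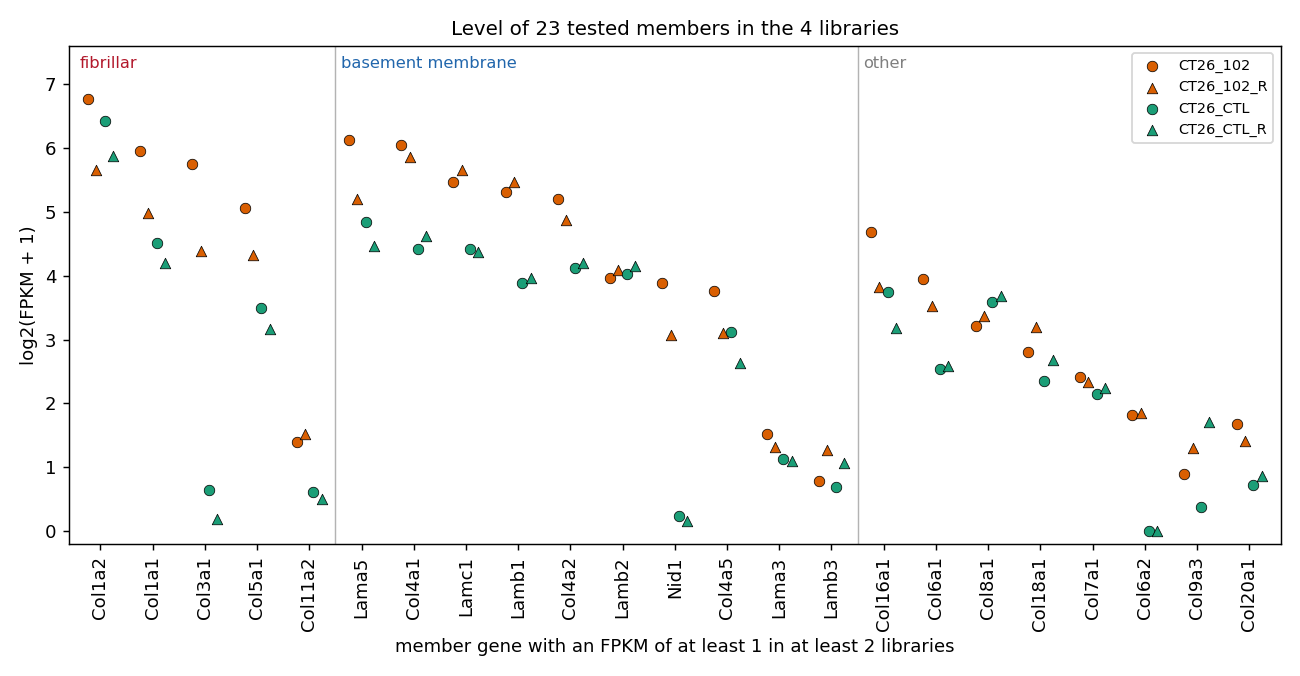
Level of 23 of the tested members as log2(FPKM + 1), with 1 point per library: orange for stem CT26_102, green for CT26_CTL, circles without and triangles with suffix R. Orange points lie above green ones for Col3a1, Nid1, Col6a2, Lamb1 and Lamc1, Lamb2 points lie close together, and for Col1a2 the triangles of both stems lie below the circles.

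With suffix R, few members passed: 1 of 24 rose and 2 fell, the latter Col1a2 and Col16a1. These shares, 4.17% and 8.33%, were near those of all tested genes, of which 7.57% rose and 5.32% fell, so the counts do not set the members apart. Upper-quartile rescaling turned the split of all genes from 905 higher and 636 lower to 937 and 1011. At an unadjusted p under 0.05, 4 members were higher and 7 lower, beside 4315 of all 11955 genes in either direction. Lamb3 and Col9a3, among those 4, passed the filter only through the R libraries and so had to be higher with R, which leaves 2 of the remaining 22. The median difference was -0.03, beside 0.00 for all tested genes. With the suffix as the only term 0 members were called by limma and 3 had an unadjusted p under 0.05, beside 1281 of all 11955 genes. No call held under every alternative that kept both terms and the filter, and each was lost in at least 1. Longer genes were lower with suffix R, with a median of -0.15 in the longest quintile and 0.15 in the shortest. Once that trend was removed 1 member rose and 0 fell, beside 831 and 615 of all 11955 genes. At an unadjusted p under 0.05, 7 members were then lower, beside 4173 of all 11955 genes in either direction.

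Col1a2 fell to 0.462 times in stem CT26_102 and 0.684 times in CT26_CTL, from 107.5 to 49.6 and from 84.6 to 57.8 FPKM. Both libraries with suffix R lay below both without it. The differences within stems were -1.10 and -0.54 on the log2(FPKM + 1) scale. They are also what is left when either library of the other stem is left out. Their mean was -0.82 ± 0.17 (adjusted p = 0.0436, from 0.0347 to 0.449 over the alternatives, 0.0524 with median-of-ratios rescaling and 0.0612 without the length trend). Col16a1 fell to 0.530 and 0.652 times, that is from 24.7 to 13.1 FPKM in CT26_102 and from 12.3 to 8.05 in CT26_CTL (-0.71 ± 0.14, adjusted p = 0.0436, range 0.0341 to 0.575, and 0.0544 without the length trend). Here CT26_102_R remained above CT26_CTL. Of the other tested fibrillar genes, 3 had lower values in both R libraries than in their partners without passing. The ratios were 0.505 and 0.794 for Col1a1 (-0.64 ± 0.19, adjusted p = 0.0806), 0.590 and 0.783 for Col5a1 (adjusted p = 0.0826) and 0.374 and 0.253 for Col3a1 (-0.91 ± 0.24, adjusted p = 0.0687). Col3a1 passed with a pseudocount of 0.1 (-1.43, adjusted p = 0.0259, the lowest in a range up to 0.900). Col11a2 was at 1.14 and 0.788 times, and Col5a3, under the test filter, at 1.855 and 0.245 times.

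Basement membrane genes showed no common direction with suffix R: 4 of 11 were higher in both stems, 4 lower in both and 3 opposite. Lamb3 was at 1.97 and 1.78 times without passing (adjusted p = 0.121, with the filter passed only through the R libraries), while Lama3 was at 0.791 and 0.971 times (adjusted p = 0.616). Lama5 was at 0.516 and 0.764 times (-0.65 ± 0.17, adjusted p = 0.0667) and Col4a5 at 0.598 and 0.672 (-0.58 ± 0.14, adjusted p = 0.0545). Col4a5 passed with upper-quartile rescaling (adjusted p = 0.0421, the lowest in a range up to 0.553). Nid1 was at 0.539 and 0.661 times. Lamb1, Lamb2 and Lamc1 stayed between 0.962 and 1.14 times in both stems. Col4a1 was at 0.877 times in stem CT26_102 and 1.16 times in CT26_CTL, and Col4a2 at 0.788 and 1.05 times. Among other collagens Col9a3 was at 1.70 and 7.48 times (0.86 ± 0.26, adjusted p = 0.0823, with the filter likewise passed only through the R libraries) and Col18a1 at 1.37 and 1.325 times (adjusted p = 0.121).

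**Figure D4:**
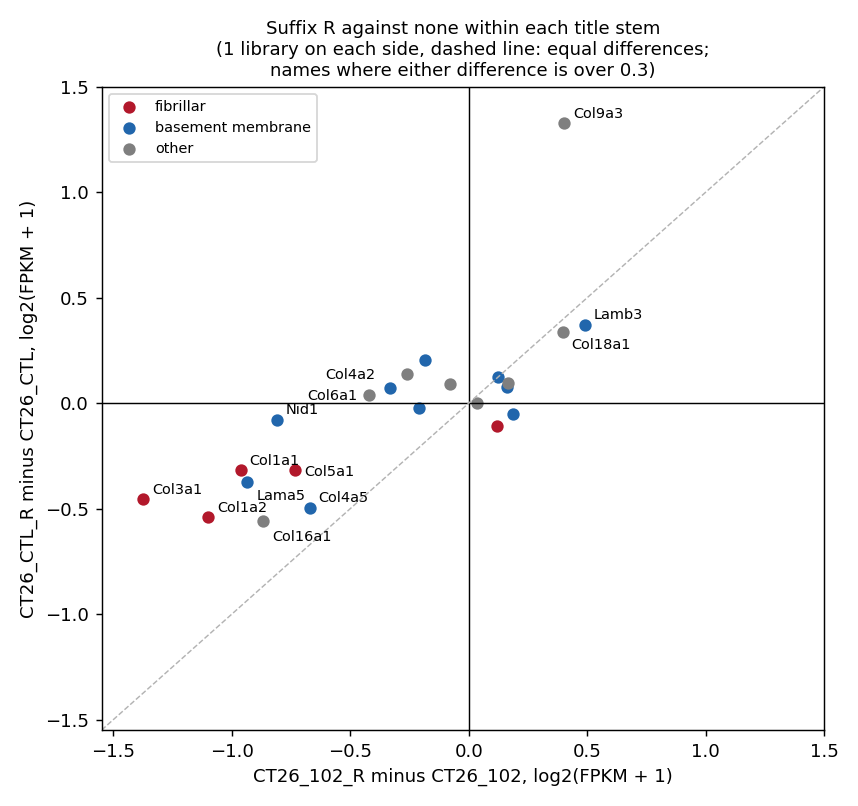
Difference of suffix R from none on the log2(FPKM + 1) scale within stem CT26_102 (horizontal) and within stem CT26_CTL (vertical) for 23 of the tested members, 1 library on each side, coloured by type. Col1a2, Col3a1, Col1a1, Col5a1, Col16a1, Lama5 and Col4a5 lie in the lower left quadrant and above the dashed line of equal differences, and Lamb3, Col18a1 and Col9a3 in the upper right. The place of Col3a1 above that line depends on the pseudocount, since its FPKM ratio was 0.374 in stem CT26_102 and 0.253 in CT26_CTL.

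Because FPKM is per length, levels of partner chains are set side by side here. The transcript lengths behind the deposited FPKM are not given, and ratios between genes depend on them. The ratio of Col1a1 to Col1a2 was 0.565, 0.617, 0.258 and 0.2997, so it followed the stem more than the suffix. That of Col4a1 to Col4a2 was 1.82, 2.03, 1.235 and 1.36. Lamb1 stood at 2.63 and 2.69 times Lamb2 in stem CT26_102 and at 0.895 and 0.866 times in CT26_CTL. Which beta chain leads in CT26_CTL could depend on the lengths used. Lama5 made up 94.8% to 97.35% of laminin alpha FPKM in each library. Col3a1 made up 20.7% and 16.2% of fibrillar FPKM in stem CT26_102 and 0.482% and 0.172% in CT26_CTL. These ratios are descriptions and were not tested.

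Several members are neighbours in the genome, and neighbours did not always share a level. Col4a1 and Col4a2 lie head to head on chromosome 8, with annotated 5′ ends that overlap by 22 bases, and both were higher in stem CT26_102. Col6a2 and Col6a1, 85161 bases apart and on 1 strand of chromosome 10, also were. Col3a1 has Col5a2 24614 bases away, tail to tail, and Col5a2 was at 0.136, 0.0494, 0.0704 and 0 FPKM where Col3a1 was at 53.0, 19.8, 0.568 and 0.144. Col4a5 and Col4a6, head to head with 1308 bases between them on chromosome X, were at up to 12.6 and up to 0.0354 FPKM. Strandedness of the libraries is not given in the sources used here, so reads in the overlap of Col4a1 and Col4a2 could belong to either.

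Of 62 genes for collagen and laminin handling and binding, 35 were tested. Between stems 10 were higher in CT26_102 (28.6%, against 12.5% of all tested genes) and 2 lower (5.71% against 9.44%). With suffix R 1 rose (2.86% against 7.57%) and 4 fell (11.4% against 5.32%). Of the calls named below by rule, 10 between stems and 4 with suffix R, none held with the tested term alone (adjusted p from 0.0682 to 0.413 and up to 0.504 in limma, with 8 and 2 at an unadjusted p under 0.05) or without the filter (from 0.0893 to 0.127 and from 0.153 to 0.181, with 10 and 4). Among 16 tested genes of collagen modification, folding and secretion, Mia3, the receptor that loads bulky collagen into transport carriers, was at 22.4, 19.8, 8.145 and 7.23 FPKM (1.35, adjusted p = 0.00784) and the lysyl hydroxylase Plod1 at 25.7, 25.1, 12.3 and 14.5 (0.88, adjusted p = 0.0189), both higher in CT26_102. Plod3, of the same enzyme family, was lower there, at 34.6, 43.85, 46.7 and 64.3 (adjusted p = 0.0457). Serpinh1, the collagen chaperone HSP47, fell with suffix R, at 100.5, 69.5, 79.6 and 55.3 (-0.52, adjusted p = 0.0452), as did the galactosyltransferase Colgalt1 at 17.9, 11.2, 18.75 and 7.15 (-0.95, adjusted p = 0.0439, or 0.0503 with a pseudocount of 0.1, in a range of 0.0277 to 0.449) and P4hb, the beta subunit of prolyl 4-hydroxylase and a disulfide isomerase, named after its values were seen, at 473, 309, 385 and 292 (adjusted p = 0.0416). The isomerase Fkbp10 rose, at 40.5, 56.7, 35.3 and 52.9 (0.52, adjusted p = 0.0498), though it missed the threshold in each alternative (0.0537 to 0.465).

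Of 6 tested processing and crosslinking genes, 3 were higher in CT26_102 and 1 lower. The procollagen C-proteinase Bmp1 was at 11.3, 12.5, 4.13 and 5.89 FPKM (1.12, adjusted p = 0.0139) and the peroxidasin Pxdn, which crosslinks type IV collagen, at 6.01, 3.64, 2.24 and 1.81 (0.92, adjusted p = 0.0242, or 0.0526 without the length trend, in a range of 0.0220 to 0.233). Pcolce, which enhances that proteinase, was lower, at 138, 117, 191 and 166 (-0.48, adjusted p = 0.0324). Of 5 other basement membrane genes 3 were higher and 0 lower, among them perlecan, Hspg2, at 17.3, 12.3, 6.11 and 5.42 (1.21, adjusted p = 0.0126) and the netrin Ntn4, which binds laminin, at 3.36, 5.325, 1.13 and 1.14 (1.30, adjusted p = 0.0162). Of 8 tested receptors 2 were higher: Mrc2, which takes up collagen, at 15.85, 9.24, 1.48 and 1.001 (2.56, adjusted p = 0.00413), and Itga3, an integrin chain that binds laminin, at 28.95, 21.8, 13.9 and 12.0 (0.91, adjusted p = 0.0167). Dag1, which encodes the laminin receptor dystroglycan, fell with suffix R from 19.7 to 6.70 and from 14.2 to 6.31 (-1.24, adjusted p = 0.0221), to 0.339 and 0.446 times. Both R libraries lay below both others.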

How the data were processed

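RNA was measured in 4 libraries of CT26 cells. Per the labels' protocols, extraction used an RNeasy kit and library construction a SMARTer mRNA kit. The deposited table holds FPKM per gene, computed by the authors. Not given in the sources used here are aligner, counting tool and strandedness. The submitters' processing notes name GRCm38 and mm10, names of the same assembly. Depth is not in the table. Steps between low values of genes with 1 transcript gave about 21.6 to 26.4 M reads, searched between 15 and 35 M, with 31.8% to 34.0% of values under 5 reads whole within 0.02 reads, so this is approximate.

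The 11955 genes that reached 1 FPKM in 2 or more libraries were fitted as log2(FPKM + 1) with limma 3.58.1 in R 4.3.3 (eBayes with trend, two-sided, Benjamini-Hochberg over all tested genes, threshold 0.05). Title stem and suffix were both terms. The residual degree of freedom is 1, to which limma's prior added 4.01. The procedure was checked on simulated data. Errors written ± are SE of this fit. An exact permutation test of 2 against 2 libraries cannot go below p = 0.333, and none was run. A lack of overlap between stems or suffixes reaches no further than that limit. Its share over all genes was not counted, and it is given only as a description. The labels name no separate cultures, and no libraries share both stem and suffix. In the fit with both terms the p-values and SE therefore rest only on how unequally the library pairs differed, together with limma's prior. That inequality may be technical, and the spread between like libraries was not measured. Stems and suffix are title words and not replicate numbers.

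Positions and exonic lengths are from GENCODE M21 (GRCm38), promoters from RefSeq (GRCm38.p6). Members tested are named with their values, except 1 that was fitted and counted but is not reported here, and of each partner list the 2 called genes with the largest difference in each direction. Members, lists and tests were chosen with earlier results of these data known. Alternatives were the tested term alone, a pseudocount of 0.1, no filter, upper-quartile or median-of-ratios rescaling, removal of a length trend, and leaving out each library.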

Additional observations from a re-analysis of the deposited data

How the results depend on the processing

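Of the 15 members called higher in stem CT26_102, 13 were called in each alternative with both terms and the expression filter, and Col4a5 and Col20a1 were not. The tested term alone (no replicate block) and the fit without a filter gave 0 members between stems and 0 with suffix R, in either direction. Median-of-ratios rescaling gave 13 between stems and left 1 lower with suffix R. It turned the split of all genes between stems from 1494 higher and 1129 lower to 1190 and 1312. A pseudocount of 0.1 left 0 higher and gave 3 lower with suffix R. Removing the length trend gave 13 higher and 1 lower between stems, and 1 higher and 0 lower, 1 in all, with suffix R. Over all genes that fit called 1099 higher and 1091 lower between stems, and 831 higher and 615 lower with suffix R. Leaving out a library and fitting the tested term alone gave from 0 to 2 members between stems and from 0 to 0 with suffix R, the 2 without CT26_102_R, where fewer libraries and 1 term enter the fit. Over all genes, calls went from 2623 between stems and 1541 with suffix R to 34 and 1 with the tested term alone, 0 and 0 without a filter, and from 0 to 16 and from 2 to 11 with a library left out. The difference of each called member kept its sign in the library pair left after each omission.

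Signs turned in genes that were not called. Between stems, without the length trend, Lamb3 went to -0.0161, Col1a2 to -0.259 and Col7a1 to -0.103, and Col1a2 was at -0.000303 with median-of-ratios rescaling. With suffix R, Lama3 went to 0.0359 without the length trend, and upper-quartile rescaling gave -0.0500 for Col4a1, -0.0317 for Col11a2, -0.0429 for Col7a1 and -0.0207 for Col6a2. Col11a2 was at -0.0537 with a pseudocount of 0.1 and at -0.00433 with median-of-ratios rescaling. Apart from the length trend, whose removal is what moves long genes, the cause was not tested. Depth limits genes near 0 most, since the table holds no counts to set an interval by.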

Other observations

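Some collagen chains were found without the chains with which they are known to assemble. Col5a1 reached 32.3 FPKM while Col5a2, its usual partner in type V, was at 0.136 or less in each library and Col5a3 at 1.19 or less. Col4a5 reached 12.6 FPKM while Col4a3, Col4a4 and Col4a6 were each under 0.1. Col9a3 was at 0.862, 1.46, 0.303 and 2.27 FPKM with Col9a1 at 0 throughout and Col9a2 at 0.0130 at most. Col6a1 was at 4.82 and 4.98 FPKM in stem CT26_CTL, where Col6a2 was listed at 0 in both libraries and Col6a3 reached 0.0116. Of the lysyl oxidases, which crosslink fibrils, Lox reached at most 0.00965 FPKM, Loxl1 at most 0.156 and Loxl2 at most 0.102. Loxl3, in contrast, was at 9.64, 11.4, 7.30 and 9.996 and Loxl4 at 19.5, 14.7, 21.8 and 16.5. Fn1, which encodes the matrix protein fibronectin, stood at 99.0, 78.6, 87.0 and 73.1 FPKM.

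Lamc3, a gamma chain under the test filter, was at 0.313, 0.780, 0.203 and 0.845 FPKM, with higher values in both R libraries. No test was made of it.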
